A study of Mus musculus with 18 samples.

Results

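The genes described are 7 apolipoproteins (Apoa1, Apoa2, Apoa4, Apob, Apoc2, Apoe and Apom) and Mttp, the microsomal triglyceride transfer protein, followed while mouse embryonic stem cells formed heart cells in culture. The list was drawn up with earlier results of these data known. Its genes were found by symbol in the probe-to-gene table of the array, and are 8 of 18193 genes measured, covered by 15 of 45101 probe sets. All 8 were among the 13435 genes tested. Cells of the mouse stem cell line D3 were freed of their feeder layer, aggregated as hanging drops into embryoid bodies (floating balls of differentiating cells) and kept in medium with ascorbic acid. In the cells sorted on days 5, 6, 7 and 8, GFP was driven by a fragment of the Nkx2-5 enhancer joined to the hsp68 minimal promoter, so that GFP reports this construct and not the Nkx2-5 gene itself, and the transfected lines had been picked as hygromycin-resistant colonies. Each day gave a GFP-positive and a GFP-negative fraction, in 2 batches, which makes 16 sorted arrays. The selected cardiomyocytes, 2 arrays, came from 1 other transgenic clone of the same line that carries neomycin resistance under the alpha myosin heavy chain promoter and was selected with G418. The labels give these cardiomyocytes no day and no batch, and do not say which GFP clone was sorted or whether the batches were separate cultures, so that p-values measure the spread between these arrays, which may be technical.

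Apolipoproteins are the protein parts of lipoproteins, the particles that carry lipid in blood and other fluids. In liver, gut and the visceral endoderm of the early mouse embryo, Mttp loads lipid onto Apob inside the cell to start a particle, and smaller apolipoproteins then act as structural parts, enzyme cofactors or receptor ligands. Visceral endoderm supplies the embryo with lipid before the liver and placenta do, and heart muscle is itself known to make Apob-containing particles.

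In the RefSeq table of assembly GRCm38.p6, Apoa1 and Apoa4 share a cluster on chromosome 9 with Apoc3 and Apoa5, and Apoc2 and Apoe share one on chromosome 7 with Apoc1 and Apoc4. Apoa2 lies on chromosome 1, Mttp on chromosome 3, Apob on chromosome 12 and Apom on chromosome 17. RefSeq start windows of 300 bases (250 before to 50 after a start, GRCm38.p6) were given for all 8 genes, 11 windows in all, with 2 for Apoa2 and 3 for Apoe. Each was searched on both strands for the letters CAAAGTCC and CAAAGNNCA, both forms of the HNF4 site that can overlap each other. The other letters were GTTAAT, one arm of the HNF1 site. TGTTTAC stood for FOXA. AGATAA stood for GATA. These factors are known regulators of endoderm genes. A match was found in windows of 5 members. CAAAGNNCA was in the windows of Apob and Apoa4, 2 of 11 windows, against 6.36% of all 32851 windows. GTTAAT was in those of Apoc2 and, on the minus strand relative to the gene, Apoe (7.1% of all windows), and TGTTTAC in those of Apoa2 and, likewise on the minus strand, Apoe (3.65%). CAAAGTCC (1.42%) and AGATAA (11.2%) matched in none of the 11, and the windows of Apoa1, Apom and Mttp held none of the 5. The stretch from -250 to -51 is shown for Apob, Apoa4, Apoc2 and Apoa2, whose matches lie wholly inside it, so that a reader can see the letters behind these counts. Capitals mark the matched letters. The matches span -103 to -95 in Apob (on the minus strand), -182 to -174 in Apoa4, -89 to -84 in Apoc2 and -77 to -71 in Apoa2, counted from the start. They describe letters only and were not tested as binding sites. The stretches are chr12:7977427-7977626 (Apob, plus strand), chr9:46240594-46240793 (Apoa4, plus strand), chr7:19677992-19678191 (Apoc2, minus strand) and chr1:171224804-171225003 (Apoa2, plus strand).
Apob: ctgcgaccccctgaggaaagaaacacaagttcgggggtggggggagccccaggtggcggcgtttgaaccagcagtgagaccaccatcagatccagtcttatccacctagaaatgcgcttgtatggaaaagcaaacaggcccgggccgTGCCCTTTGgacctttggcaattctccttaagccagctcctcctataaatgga
Apoa4: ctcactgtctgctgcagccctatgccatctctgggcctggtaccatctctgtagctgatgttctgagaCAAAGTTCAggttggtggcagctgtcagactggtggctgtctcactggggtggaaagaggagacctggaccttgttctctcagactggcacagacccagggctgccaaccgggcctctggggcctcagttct
Apoc2: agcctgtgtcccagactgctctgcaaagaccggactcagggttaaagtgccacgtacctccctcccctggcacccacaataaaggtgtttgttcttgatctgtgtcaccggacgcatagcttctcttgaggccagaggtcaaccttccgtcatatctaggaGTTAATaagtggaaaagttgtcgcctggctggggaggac
Apoa2: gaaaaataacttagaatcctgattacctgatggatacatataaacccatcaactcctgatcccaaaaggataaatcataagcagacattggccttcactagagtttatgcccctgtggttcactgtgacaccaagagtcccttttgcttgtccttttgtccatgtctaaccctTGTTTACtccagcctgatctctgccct

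Signals are MAS5 intensities on a linear scale, already scaled to a trimmed mean of 150.0 on each array. Array medians lay between 18.2 and 29.3. Arrays of 1 group correlated with r between 0.936 and 0.985 across the 13435 genes tested, 1 probe set each, as log2(signal + 6.8). The 3' to 5' signal ratio of the Gapdh control, a measure of RNA quality, differed between groups. In batch 1 it was 1.13 to 1.24 on days 5 and 6 and 1.46 to 1.64 on days 7 and 8. In batch 2 it was 1.21 to 1.57 and 1.28 to 1.37, and in selected cardiomyocytes 1.62 and 1.58. Its part in the results was not tested. A difference is given on the scale log2(signal + 6.8) ± SE from limma over all 18 arrays, and a gene is called when its Benjamini-Hochberg adjusted p over 13435 genes is under 0.05. The offset makes the fold of a dim gene smaller, and no detection calls were used here. The gene whose enhancer drives GFP, Nkx2-5, a homeobox factor of early heart cells, had signals of 60.6 to 323.2 in GFP-positive cells and 43.5 to 107.4 in GFP-negative cells. The ranges overlapped, and Nkx2-5 was higher in GFP-positive cells by 1.07 ± 0.26 over days 5 to 8 (limma, adjusted p = 0.0443). Myh6, the alpha myosin heavy chain, had signals of 8122.3 and 7891.5 on the 2 arrays of selected cardiomyocytes, above the 19.5 to 2920.9 of the sorted arrays. Afp and Ttr, secreted proteins of visceral endoderm chosen here after their values were seen, had signals of 0.7 and 17.8 in GFP-positive and 0.4 and 18.1 in GFP-negative cells of day 5, batch 2, against 977.3 and 2958.2 in GFP-positive and 1194.2 and 2354.2 in GFP-negative cells of day 5, batch 1. Endoderm markers did not all follow: of the 24 genes of that list, 22 were lower in batch 2 than in batch 1 of the day 5 GFP-positive cells, but 10 were lower and 14 higher in the GFP-negative cells, Sox17 among them with 1584.4 in batch 2 and 397.0 in batch 1. With both day 5 arrays of batch 2 left out, an alternative chosen after seeing the data, the counts of called members were 6 over days 5 to 8, 7 over days 7 and 8, 0 over days 5 and 6, 7 and 1 with time in GFP-positive and in GFP-negative cells, and 8 and 4 in cardiomyocytes against GFP-positive and against GFP-negative cells. Only the last of these counts differed from the one with all arrays. Over days 5 to 8 Apom then joined the called genes (1.93, adjusted p = 0.00375) and Apoa4 left them (0.77, adjusted p = 0.0692).

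All 8 genes had their highest group mean in GFP-positive cells of day 8, a share that was not computed over all genes. Of the 8, 7 were called higher in GFP-positive than in GFP-negative cells over days 7 and 8, as were 5.09% of genes tested. The differences there ranged from 1.33 for Apoa2, which was not called, to 3.56 for Apob, with a median of 2.28 against 0.01 over all genes tested. In GFP-negative cells no member was called higher with time (7.09% of genes), but Apoa1 and Apoa2 were once batch was fitted (10.1%). Apoe was called lower there (5.2% of genes), with -0.44 in batch 1 and -1.46 in batch 2. Selected cardiomyocytes had the lowest group mean for 6 of the 8, all but Apoe and Mttp, again with no share computed over all genes. Of all genes tested, 25.3% were called lower in them than in GFP-positive cells of days 7 and 8.

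**Figure D1:**
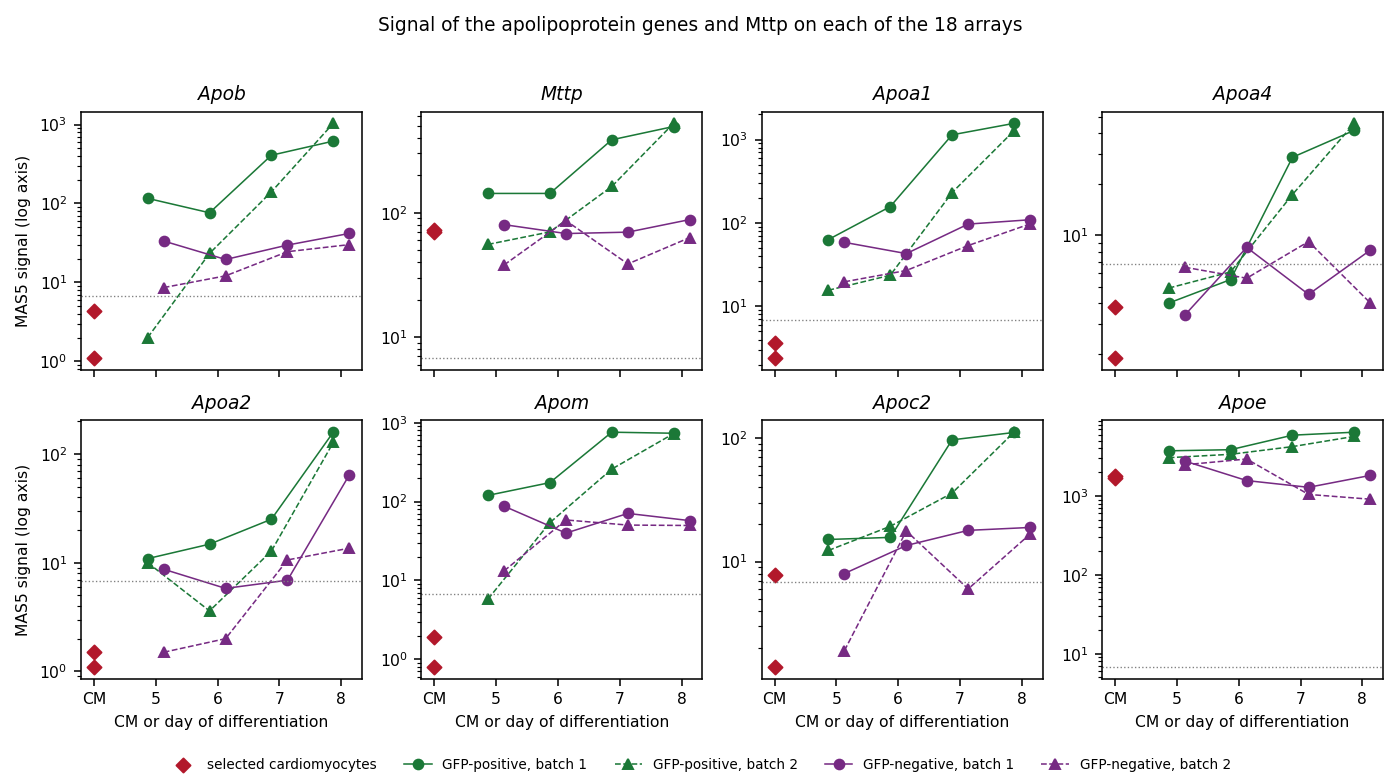
MAS5 signal (log axis, a different range in each panel) of the used probe set of each gene on every array, with selected cardiomyocytes (CM, diamonds) at the left and days 5 to 8 after it; GFP-positive cells are green and GFP-negative cells purple, batch 1 has circles and solid lines, batch 2 triangles and dashed lines, and the dotted line marks a signal of 6.8. On days 7 and 8 the green points lie above the purple ones in each day and batch for all 8 genes, and the diamonds lie under the dotted line for Apob, Apoa1, Apoa4, Apoa2 and Apom.

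Apob and Mttp are the core of particle assembly. Apob is the large structural protein that stays with a particle for life. In GFP-positive cells of days 5, 6, 7 and 8, Apob had signals of 116.0, 76.2, 408.1 and 616.0 in batch 1 and 2.0, 23.3, 140.3 and 1034.4 in batch 2. The GFP-negative cells of the same days gave 33.4, 19.5, 29.7 and 41.7 in batch 1 and 8.6, 12.1, 24.5 and 30.1 in batch 2. The fractions overlapped on days 5 and 6 and did not on days 7 and 8, where the lowest GFP-positive array was at 140.3 and the highest GFP-negative array at 41.7. Over days 7 and 8 Apob was higher in GFP-positive cells by 3.56 ± 0.67 (11.8-fold, limma, adjusted p = 0.0107), a fold that the offset makes smaller. Its other probe set gave 2.80.

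Mttp is the partner that transfers lipid to Apob. Its signals in GFP-positive cells of days 5 to 8 were 143.1, 143.1, 386.1 and 493.8 in batch 1 and 55.7, 70.2, 162.7 and 523.4 in batch 2. GFP-negative cells had 80.3, 68.1, 69.9 and 88.2 in batch 1 and 38.1, 86.5, 38.8 and 63.2 in batch 2. The GFP-positive cells of days 7 and 8 were the only sorted arrays above 143.1, and the fractions did not overlap there. The difference over days 7 and 8 was 2.39 ± 0.35 (5.3-fold, adjusted p = 0.00312), and 2.15 by the second probe set.

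Among the small A apolipoproteins, Apoa1, the main protein of high density lipoprotein and the cofactor of the cholesterol-esterifying enzyme Lcat, had the largest change with time of the 8 in GFP-positive cells. Apoa1 signals in GFP-positive cells were 63.2, 156.9, 1138.8 and 1562.6 on days 5 to 8 of batch 1 and 15.6, 23.6, 231.2 and 1274.0 in batch 2. In GFP-negative cells they were 58.5, 42.9, 96.9 and 109.2 in batch 1 and 19.7, 26.9, 53.6 and 97.4 in batch 2. Batch 2 was low on day 7 relative to batch 1 and close to it on day 8, and the fractions did not overlap on either day. Over days 7 and 8 Apoa1 was higher in GFP-positive cells by 3.21 ± 0.58 (9.2-fold, adjusted p = 0.00876). The probe set used is of the x type, which can bind related transcripts. The 3 others, 1 of which is not of that type, gave differences of 3.61, 3.57 and 3.06.

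Apoa4, a gut and liver apolipoprotein of triglyceride-rich particles, was dim. GFP-positive cells had 4.0, 5.5, 28.8 and 41.5 on days 5 to 8 of batch 1 and 4.9, 6.1, 17.4 and 45.6 in batch 2, whereas no GFP-negative array exceeded 9.2. Days 7 and 8 separated from days 5 and 6 in GFP-positive cells and from all GFP-negative arrays. The difference over days 7 and 8 was 1.55 ± 0.24 (2.9-fold, adjusted p = 0.00355). The other Apoa4 probe set, not of the x type, gave 1.23 but did not separate the fractions on both days: it read 21.3 and 1.0 on day 7 and 21.7 and 13.7 on day 8 in GFP-positive cells of batches 1 and 2, against 2.2 and 1.1 on day 7 and 0.9 and 1.0 on day 8 in GFP-negative cells. Where x-type sets were used only in the absence of another, a setting chosen after seeing the data, Apoa4 was not among the genes tested, and 6 of the 7 members left were called over days 7 and 8 and 4 over days 5 to 8.

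Apoa2, another protein of high density lipoprotein, had its highest signals on day 8. In GFP-positive cells it had 10.9, 14.8, 25.1 and 158.7 in batch 1 and 10.0, 3.6, 12.8 and 127.6 in batch 2 over days 5 to 8. GFP-negative cells had 8.7, 5.8, 6.9 and 64.3 in batch 1 and 1.5, 2.0, 10.6 and 13.6 in batch 2. The day 8 GFP-negative array of batch 1, at 64.3, lay above the GFP-positive arrays of day 7, so the fractions overlapped. Over days 7 and 8 the difference was 1.33 ± 0.39 with an adjusted p of 0.0572. Fitting batch lowered that p to 0.0198.

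Apom carries the lipid mediator sphingosine-1-phosphate on high density lipoprotein. GFP-positive cells had Apom signals of 119.8, 173.8, 758.0 and 735.0 on days 5 to 8 of batch 1 and 5.8, 54.0, 257.9 and 728.2 in batch 2. GFP-negative cells had 87.3, 39.8, 70.7 and 57.3 in batch 1 and 13.2, 58.4, 50.3 and 49.7 in batch 2. With time GFP-negative cells differed by 0.37 ± 0.65, and on days 7 and 8 their highest array (70.7) was under the lowest GFP-positive one (257.9). Apom was higher in GFP-positive cells by 3.19 ± 0.65 over days 7 and 8 (9.1-fold, adjusted p = 0.0157), and its other probe set gave 2.59.

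Apoc2 is the cofactor that activates lipoprotein lipase. The GFP-positive signals of Apoc2 were 15.1, 15.7, 97.0 and 111.3 in batch 1 and 12.3, 19.3, 35.9 and 111.9 in batch 2 over days 5 to 8. GFP-negative cells stayed between 1.9 and 18.9 on all 8 arrays. On days 7 and 8 the fractions did not overlap, and the 2 day 8 GFP-positive arrays were nearly equal. The difference over days 7 and 8 was 2.09 ± 0.32 (4.2-fold, adjusted p = 0.00382).

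Apoe, the ligand by which remnant particles are taken up and a protein that many cell types make, macrophages among them, followed another course. GFP-positive cells had 3727.3, 3851.0, 5882.0 and 6420.1 on days 5 to 8 of batch 1 and 3049.4, 3366.1, 4214.3 and 5681.9 in batch 2. GFP-negative cells had 2762.2, 1564.2, 1284.5 and 1819.1 in batch 1 and 2481.0, 2933.3, 1043.7 and 907.7 in batch 2. Apoe was the only one of the 8 whose fractions did not overlap over all 4 days, with the lowest GFP-positive array at 3049.4 and the highest GFP-negative array at 2933.3; 0.275% of genes tested had such ranges apart with higher GFP-positive values. The Apoe difference was 2.16 ± 0.22 over days 7 and 8 (4.5-fold, adjusted p = 0.000688), and 1.36 ± 0.16 over days 5 to 8 (adjusted p = 0.000966).

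Over all 4 days, 6 of the 8 genes were called higher in GFP-positive cells, where 2.14% of all genes tested were, and all 8 were called with batch as a covariate (3.91%). Apoa2 (0.94 ± 0.27, adjusted p = 0.0908) and Apom (1.80 ± 0.46, adjusted p = 0.0599) were the 2 not called without batch. The count of 6 was 3 with an offset of 1 and also 3 when any of 10 single arrays was left out, which were batch 1 of day 6 GFP-negative, day 6 GFP-positive, day 7 GFP-positive, day 7 GFP-negative and day 8 GFP-positive cells, and batch 2 of day 5 GFP-negative, day 6 GFP-negative, day 7 GFP-negative, day 8 GFP-negative and day 8 GFP-positive cells. Apoc2, Apoe and Mttp kept their calls whichever of the 18 arrays was omitted, with adjusted p values of at most 0.0388, 0.00552 and 0.0375.

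Over days 7 and 8 alone, 7 of 8 were called, against 5.09% of all genes, and 8 with batch as a covariate (7.39%). Ranges lay apart for those 7, against 7.92% of genes with higher GFP-positive values. Scaling the arrays to equal medians shifted the median of all genes from 0.01 to -0.19 in this comparison and the share of calls that were higher from 77.2% to 43.8%, and the 7 genes kept their calls. Without batch 1 of the day 7 GFP-positive cells, Apoa1, Apob and Apom lost their calls, with differences of 2.64, 3.19 and 2.80. Apob also lost its call without batch 2 of the day 8 GFP-positive cells (3.37). Apom also lost its call without batch 1 or batch 2 of the day 8 GFP-positive cells (3.18 and 3.19). The same held for Apom without batch 2 of the day 7 or day 8 GFP-negative cells (3.08 and 3.14). On day 8 alone 6 of 8 were called (2.35% of genes), and 8 once batch was fitted (4.34%). On day 7 alone limma called 0.0% of genes in either fit, while 1136 genes and 7 of the 8 members had an unadjusted p below 0.05 before batch was fitted, and all 8 members had ranges apart, as did 22.4% of genes with 2 arrays a fraction.

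Over days 5 and 6, no member was called by limma with or without batch. Of all genes 0.0521% were called higher (0.0968% with batch), and 904 genes and 1 of the 8 members (Apoe) had an unadjusted p below 0.05. Here the members' median difference was 0.49 against -0.03 over all genes. Apoe differed by 0.56 ± 0.22 (adjusted p = 0.634) and its fractions lay apart, as in 1.29% of genes. Apoa4 had -0.09 ± 0.24 (adjusted p = 0.992).

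**Figure D2:**
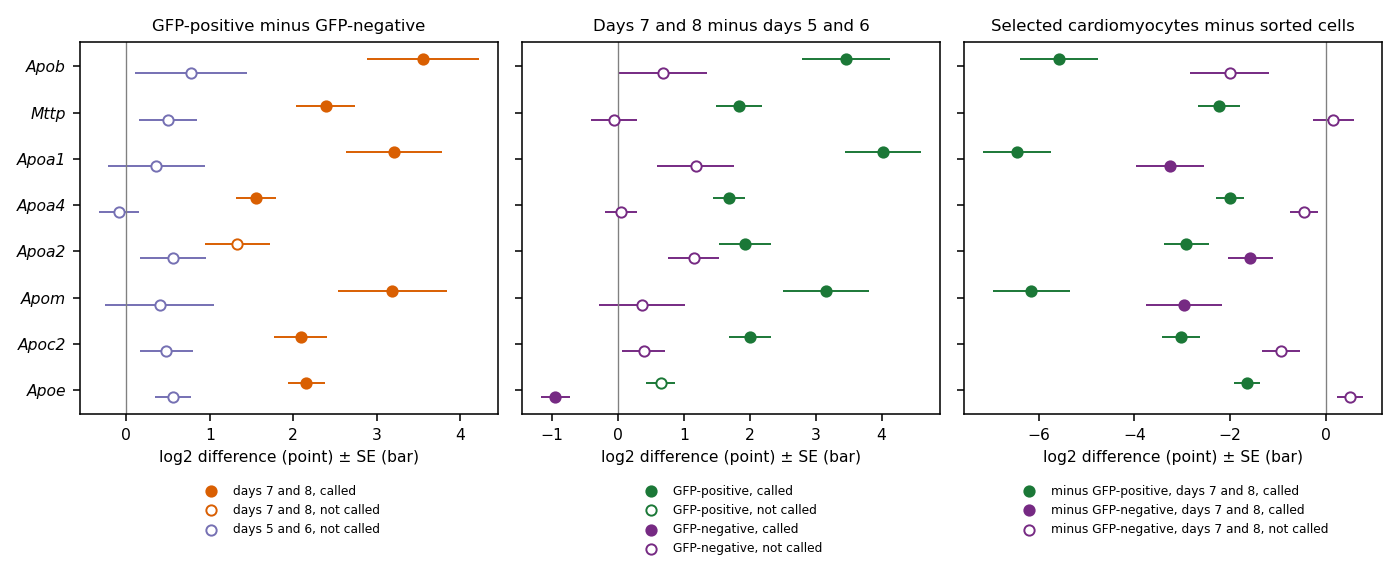
Log2 differences (points) with SE (bars) of the 8 genes in 3 pairs of comparisons, filled where the adjusted p is under 0.05. In the left panel days 7 and 8 lie right of days 5 and 6 for every gene, in the middle panel GFP-positive lies right of GFP-negative for every gene, and in the right panel the comparison with GFP-positive cells lies furthest below 0, down to -6.46 for Apoa1.

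When each GFP-positive array was paired with the GFP-negative one of its day and batch, Apoa2, Apoc2 and Apoe had the higher signal in GFP-positive cells every time (8 of 8), as did 3.45% of genes tested. The exact two-sided test over sign exchanges gave each an unadjusted p of 0.00781, the smallest that 256 arrangements allow. Apob and Mttp were higher in 7 of 8 pairs (exact p = 0.0234 and 0.0156), and Apoa1, Apoa4 and Apom in 6 of 8 (exact p = 0.0547, 0.102 and 0.0469). These are 8 such tests. Each takes the 8 pairs as independent, although they come from 4 days within 2 batches that may not be separate cultures, so the exact p values may be too small. All pairs that went the other way belonged to days 5 and 6. For Apob, Apoa1 and Apom the lower pair on day 5 was the one of batch 2, at -0.81, -0.24 and -0.67, beside 1.61, 0.10 and 0.43 in batch 1. In the 4 pairs of days 7 and 8 all 8 genes were higher in GFP-positive cells, as were 20.2% of genes tested.

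**Figure D3:**
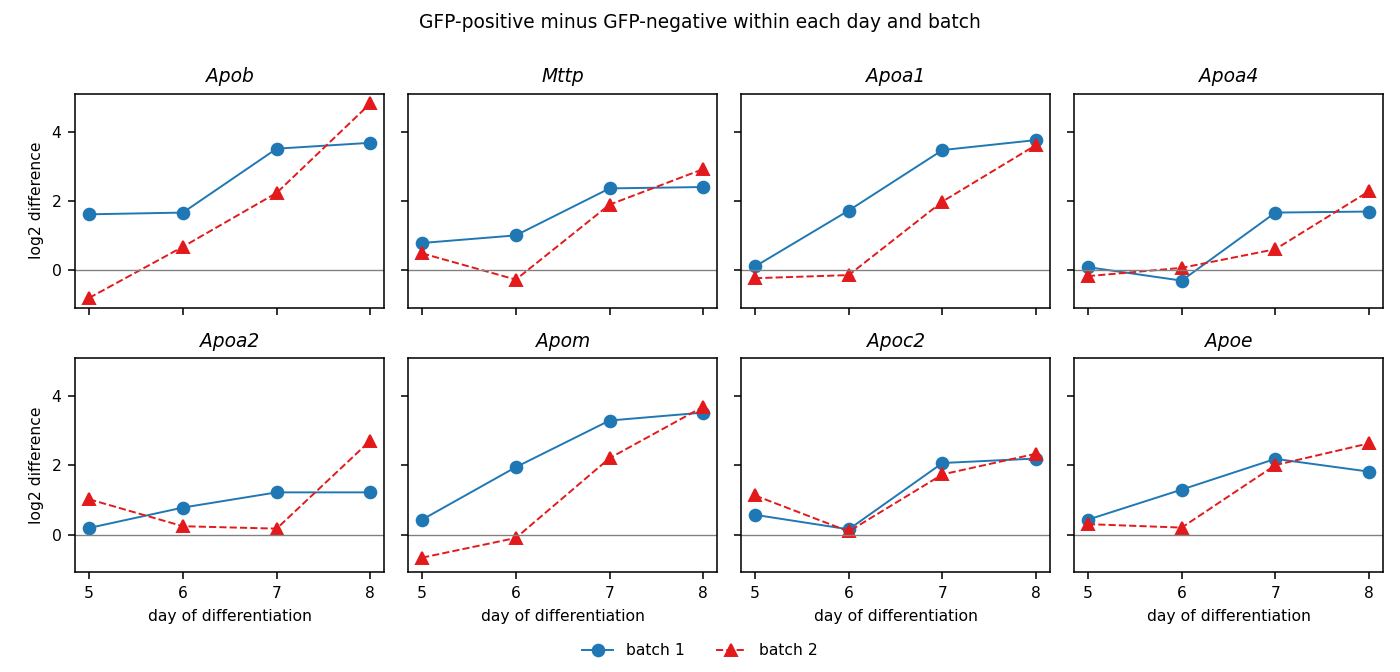
GFP-positive minus GFP-negative log2 difference of each gene by day, with batch 1 as circles and a solid line and batch 2 as triangles and a dashed line. Every point on days 7 and 8 is above 0; on day 7 batch 2 lies under batch 1 in all 8 panels, for example 1.98 against 3.47 for Apoa1.

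With time, GFP-positive cells rose in 7 of the 8 genes over days 7 and 8 relative to days 5 and 6, where 11.2% of all genes were called higher, and in 8 with batch as a covariate (15.2%). Equal array medians shifted the median of all genes here from 0.09 to -0.29 and the share of higher calls from 58.5% to 14.4%, and quantile normalization moved that share to 46.5%. The same 7 genes stayed called under both. Ranges of the late and early days lay apart for 7 of 8, all but Apoa2, against 10.5% of genes. Apoa1 rose by 4.02 ± 0.58 (adjusted p = 0.00418), Apob by 3.46 ± 0.67 (adjusted p = 0.00735) and Apom by 3.16 ± 0.65 (adjusted p = 0.00916). Apoc2, Apoa2, Mttp and Apoa4 rose by 2.00, 1.93, 1.84 and 1.69. Other probe sets gave 2.27 for Apob, 2.39 for Apom, 1.68 for Mttp, 1.19 for Apoa4 and 4.31, 4.52 and 4.32 for Apoa1. Apoe differed by 0.65 ± 0.22 (adjusted p = 0.0554, and 0.0370 with batch).

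GFP-negative cells had no member called higher over the same days, where 7.09% of genes were, and Apoe was the 1 called lower, among 5.2% of genes. Apoe fell by 0.95 ± 0.22 on the log2 scale (adjusted p = 0.0183), with 907.7 to 1819.1 on days 7 and 8 and 1564.2 to 2933.3 on days 5 and 6, ranges that overlapped. Its within-batch differences were -0.44 in batch 1 and -1.46 in batch 2, and the call was lost without the batch 1 array of day 7 or the batch 2 array of day 5, day 6 or day 8 of these cells (adjusted p = 0.0518, 0.0519, 0.0903 and 0.0544). Once batch was fitted, Apoa1 (1.18, adjusted p = 0.0373) and Apoa2 (1.15, adjusted p = 0.0243) were called higher too (10.1% of genes), while Apoe stayed the 1 called lower (7.76%). Other probe sets gave 1.63, 1.71 and 1.90 for Apoa1, -0.43 for Apob, 0.19 for Apom, 0.00 for Apoa4 and -0.24 for Mttp. In GFP-negative cells equal array medians moved the share of higher calls from 57.7% to 34%.

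The change with time differed between the fractions in the same direction for all 8 genes, with a median of 1.77 against 0.04 over all genes, and none was called by limma. Only 20 genes were called (0.149%), although 1735 genes and 7 of the 8 members had an unadjusted p below 0.05. Fitting batch gave 3 calls, Apoa1 (2.85, adjusted p = 0.0304), Apoe (1.61, adjusted p = 0.0359) and Mttp (1.90, adjusted p = 0.0359), against 1.07% of genes. Without batch the adjusted p values of the 8 lay between 0.0549 for Apoe and 0.585 for Apoa2.

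Selected cardiomyocytes had low signals for 6 of the 8 genes, all but Mttp and Apoe. Apob had signals of 1.1 and 4.4 on their 2 arrays, Apoa1 3.6 and 2.4, and Apom 0.8 and 1.9, all under the offset of 6.8. Apoa2 had 1.1 and 1.5, Apoa4 3.8 and 1.9, and Apoc2 7.8 and 1.4. Mttp and Apoe stayed measurable, with 72.1 and 69.9 for Mttp and 1765.1 and 1709.7 for Apoe. Against GFP-positive cells of days 7 and 8, all 8 genes were called lower, where 25.3% of all genes were (26.9% with batch), and no ranges overlapped (34.8% of genes lay apart and lower). Apoa1 differed by -6.46 ± 0.71 (adjusted p = 1.93e-05), Apom by -6.15 ± 0.80 and Apob by -5.57 ± 0.82, values that move with the offset since the cardiomyocyte signals lie below it: with an offset of 1, Apoa1 gave -7.75. Mttp differed by -2.23 ± 0.43 (adjusted p = 0.00122) and Apoe by -1.65 ± 0.27 (adjusted p = 0.000375). Other probe sets gave -3.37 for Apob, -1.46 for Mttp, -5.08 for Apom, -1.33 for Apoa4 and -6.64, -6.39 and -6.09 for Apoa1. Equal array medians moved the share of higher calls from 41.3% to 70.2% in this comparison, and the 8 genes stayed called lower.

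Against GFP-negative cells of days 7 and 8, 3 of the 8 were called lower in selected cardiomyocytes, where 25.7% of genes were, and 4 with batch (27.1%). The 3 were Apoa1 (-3.25 ± 0.71, adjusted p = 0.00228), Apom (-2.96 ± 0.80, adjusted p = 0.00886) and Apoa2 (-1.58 ± 0.47, adjusted p = 0.0153). Apob had -2.01 ± 0.82 (adjusted p = 0.0605, and 0.0216 with batch), but its other probe set gave -0.58. Ranges lay apart for 5 of 8, Apoa4 and Apob besides the 3 called (33.6% of genes). Apoe (0.51 ± 0.27), Mttp (0.16 ± 0.43) and Apoc2 (-0.93 ± 0.40) overlapped with GFP-negative cells. Other probe sets gave 0.70 for Mttp, -2.50 for Apom, -0.10 for Apoa4 and -3.03, -2.83 and -3.03 for Apoa1. Apoe was called higher with equal array medians (0.71, adjusted p = 0.0366) and without the batch 1 array of day 8 GFP-negative cells (0.76, adjusted p = 0.0208). The count was 5 with an offset of 1 and with array weights, and 1 without the first cardiomyocyte array. Equal array medians moved the share of higher calls from 44% to 58.4%.

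Over the 16 sorted arrays, the 21 pairs of the 7 genes other than Apoe had Pearson r between 0.692 and 0.965, with a median of 0.876, on the log2 scale, and the 7 pairs with Apoe had r between 0.436 and 0.787. Much of this rested on a few arrays for Apoa2 and Apoa4. For each pair, the 2 arrays farthest from the median of 1 gene were then left out, the gene that comes first in the list at the opening. The 6 pairs with Apoa2 then had r between 0.36 and 0.615 (Apoa2 and Apoa4 0.36, Apoa2 and Apom 0.395), and the 15 pairs without it between 0.632 and 0.956. Spearman's rho was 0.387 to 0.55 for the 6 pairs with Apoa4 and 0.387 to 0.944 over the 21. These values describe arrays that share days, batches and scaling. By Pearson r over all 16 arrays, the genes nearest to each member included Dpp4, a cell surface peptidase, for Apom (r = 0.977), Mttp (r = 0.970) and Apob (r = 0.967), Nepn (r = 0.982) and the heme-binding plasma protein Hpx (r = 0.968) for Apoa1, the retinol carrier Rbp4 (r = 0.974) and S100g (r = 0.970) for Apom, Ambp for Apoa2 (r = 0.922), Mttp for Apoc2 (r = 0.941), and the transcription factor Klf4 for Apoe (r = 0.960). The rest of the 3 nearest were Hrc for Apoa1 (r = 0.965), and Endod1 (0.930) and Ugt2b34 (0.927) for Apoa2. For Apoa4 they were Adgrg2 (0.946), Rap1gap (0.936) and Slco2a1 (0.934), and for Apob Rapgef3 (0.969) and Ushbp1 (0.966). Slco2a1 (0.931) and Agrn (0.929) were near Apoc2, and Afdn (0.952) and Sptbn1 (0.949) near Apoe. Hkdc1 (0.962) and Psen2 (0.960) were near Mttp. The 10 genes nearest to the members' mean standardised profile were Slco2a1, Dpp4, Agrn, Snrk, Lgmn, Cav2, Ly6h, Hkdc1, Gramd1b and Tmem100, with r from 0.977 to 0.957. Leaving out the 2 arrays farthest from the member's own median lowered r for Apoa2 and Ugt2b34 from 0.927 to 0.777, for Apoa2 and Endod1 from 0.93 to 0.821 and for Apoa4 and Rap1gap from 0.936 to 0.806.

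In GFP-positive cells the members' median gap of batch 1 over batch 2 was 0.78, 1.00, 1.25 and 0.00 on the log2 scale on days 5, 6, 7 and 8, with 7, 6, 8 and 4 of the 8 genes higher in batch 1. In GFP-negative cells the members' median gap was 0.93, 0.01, 0.37 and 0.42, with 7, 4, 6 and 8 of the 8 genes higher in batch 1. The median gap over all genes lay between -0.03 and 0.09 in each day and fraction. The widest single gaps were in GFP-positive cells of day 5, 3.80 for Apob and 3.33 for Apom.

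Other genes of lipoprotein metabolism were compared over days 7 and 8, where 5.09% of all genes were called higher and 1.5% lower. Of 12 further apolipoprotein and related genes 6 were tested and none was called by limma with or without batch, and 1 had an unadjusted p below 0.05. They include Apoa5 (0.65 ± 0.24, adjusted p = 0.13) and Apool (-0.21 ± 0.11, adjusted p = 0.263). Of the cluster neighbours, Apoc3, an inhibitor of lipoprotein lipase, had signals of 5.0 to 24.3 over the 18 arrays and a difference of 0.10 ± 0.31 (adjusted p = 0.882). Apoc1 had 2.8 to 25.3 and was not among the genes tested. Apoa5 had 7.1 to 50.9, with the highest value in GFP-positive cells of day 8, batch 2, above the 45.6 that Apoa4 reached. Signals of Apoc4 are not given here. Differences between neighbours of a cluster were not tested.

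Of 18 tested genes of particle assembly and secretion 2 were called higher over days 7 and 8: Fabp2, the intestinal fatty acid binding protein (2.33 ± 0.36, adjusted p = 0.00391), and Pla2g12b (2.06 ± 0.29, adjusted p = 0.00251), which is known in mice to be needed for secretion of triglyceride-rich particles. Of 11 receptors and uptake genes 3 were called higher, Stab1 (1.90 ± 0.45), Amn (1.80 ± 0.35) and Cubn (1.47 ± 0.33), of which Cubn and Amn form a receptor that takes up Apoa1 in visceral endoderm and kidney. Among 11 lipases and remodelling genes Gpihbp1, which anchors lipoprotein lipase to capillaries, was higher (1.25 ± 0.28) and Angptl4, an inhibitor of that lipase, was lower (-0.85 ± 0.20). Of 17 genes of cholesterol and fatty acid synthesis none was called higher and 3 were lower, Fdps (-0.87 ± 0.20), Mvk (-0.56 ± 0.15) and Fdft1 (-0.55 ± 0.12). With batch 7 were called lower, as were 414 of the 13435 genes tested. All 17 had negative differences, as had 49.2% of all genes, with a median of -0.33 against 0.01 over all genes.

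Among 21 tested transcription factors known to act on apolipoprotein genes 6 were called higher over days 7 and 8 and none lower, with a median of 0.27. Hnf4a, the nuclear receptor whose site letters were searched above, had signals of 113.8 and 87.4 on day 7 and 188.3 and 210.4 on day 8 in GFP-positive cells, against 27.7 and 41.7 on day 7 and 10.2 and 17.4 on day 8 in GFP-negative cells. The fractions did not overlap on these days, and the difference was 2.36 ± 0.35 (adjusted p = 0.00300). Onecut1 (1.62 ± 0.35), Gata4 (1.38 ± 0.31) and Nr5a2 (1.31 ± 0.26) were called as well.

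**Figure D4:**
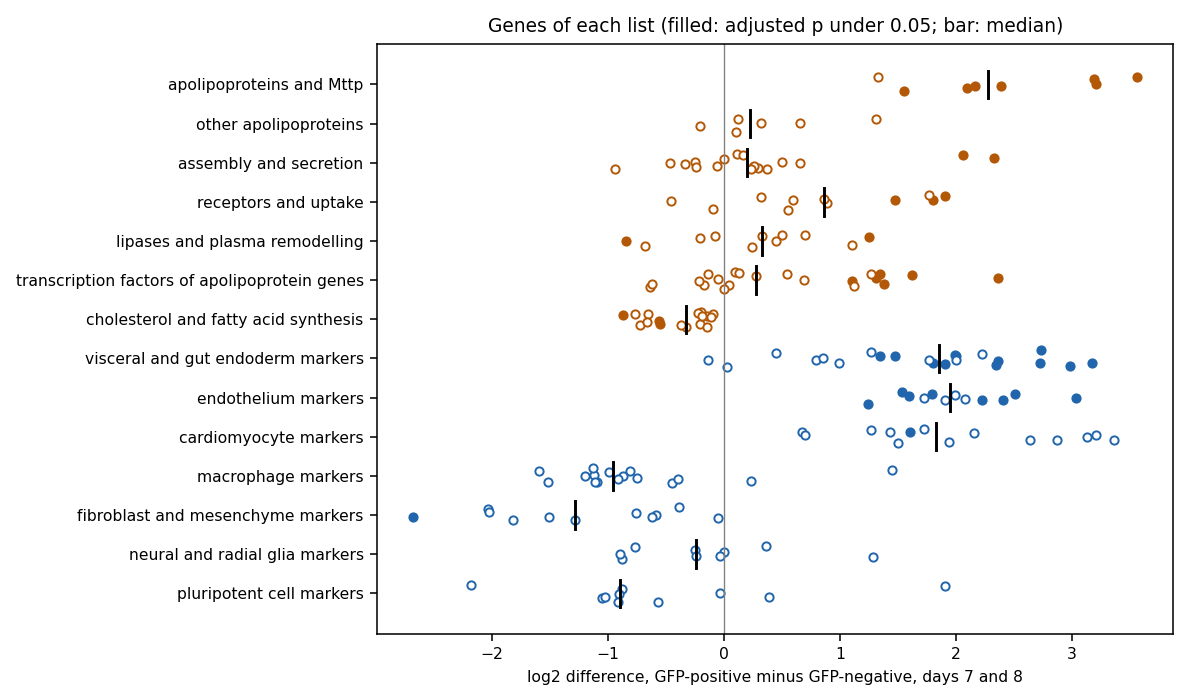
Log2 difference between GFP-positive and GFP-negative cells over days 7 and 8 for every tested gene of each list (points, filled where the adjusted p is under 0.05, jittered vertically) with the list median (black bar). The members' median is 2.28; those of visceral and gut endoderm and of endothelium are 1.85 and 1.94, and that of cholesterol and fatty acid synthesis is -0.33.

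Markers of other cell types were also called in the comparison of days 7 and 8. Of 22 tested markers of visceral and gut endoderm 12 were called higher in GFP-positive cells over days 7 and 8, with a median of 1.85, among them Spink1 (3.17 ± 0.42), Sox17 (2.98 ± 0.44) and Lgmn (1.90 ± 0.30). The list also holds Hnf4a, Amn, Cubn, Rbp4 and S100g. The summed signal of its 24 genes was 28627.1 to 30388.3 in GFP-positive and 4440.4 to 7983.7 in GFP-negative cells of day 8, 12031.3 to 24945.3 in GFP-positive and 4034.4 to 5504.2 in GFP-negative cells of day 7, and 2028.6 to 2118.4 in selected cardiomyocytes. On day 5 it was 1722.4 to 8507.5 in GFP-positive and 7077.2 to 8496.5 in GFP-negative cells, which overlap. On day 6 it was 5417.4 to 10940.8 and 4422.1 to 6101.9. The median gene of the list was at 49.5, 75.7, 159.9 and 258.6 in GFP-positive cells of days 5 to 8. In GFP-negative cells it was at 226.3, 121.8, 65.8 and 70.0. Over days 5 and 6, 5 of the 22 tested markers had an unadjusted limma p below 0.05, 1 higher and 4 lower in GFP-positive cells. In selected cardiomyocytes 4 of the 24 genes were under 6.8 on both arrays, and Ttr was at 14.4 and 28.5. The part of endoderm cells in the member results was not tested, and in bulk RNA fewer cells of a type and less RNA per cell cannot be told apart.

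Endothelial markers were higher too, 8 of 12 called (12 with batch) with a median of 1.94 (Icam2, 3.03 ± 0.62, and Sox18, 2.40 ± 0.43), with a summed signal of 8863.5 to 9955.6 in GFP-positive and 1681.3 to 2559.1 in GFP-negative cells of day 8 and 414.1 to 430.8 in selected cardiomyocytes. Of 14 cardiomyocyte markers Nkx2-5 was the 1 called (1.60 ± 0.36) and 8 were with batch, with a list median of 1.83. Of these markers 11 had an unadjusted limma p below 0.05, all higher in GFP-positive cells. Their summed signal on day 8 was 26278.3 to 26648.7 in GFP-positive and 3822.9 to 7529.3 in GFP-negative cells. In selected cardiomyocytes it was 73185.6 to 74143.3. Macrophages are known to make Apoe, and of their markers limma without batch called none of 16 (7 had an unadjusted p below 0.05, 6 of them lower), their median was -0.95, and their summed signal on day 8 was 2843.8 to 2992.5 in GFP-positive and 5823.6 to 7767.7 in GFP-negative cells. With time 11 of 16 of these markers were called higher in GFP-positive cells (11.2% of genes) and 13 of 16 in GFP-negative cells (7.09%). Of 11 fibroblast and mesenchyme markers Lum was lower (-2.68 ± 0.67), and limma without batch called no marker of neural cells (9 tested, 3 with an unadjusted p below 0.05) or pluripotent cells (10 tested, 5 with an unadjusted p below 0.05) over these days. With batch fitted, limma did call markers of these lists. Among them were Mrc1 (1.45, adjusted p = 0.0186) and Cd14 (-1.60, adjusted p = 0.0338) of macrophages. Pax6 of neural cells (1.28, adjusted p = 0.0378) and Zfp42 of pluripotent cells (-1.03, adjusted p = 0.0426) were others. The part of endothelial, heart muscle and macrophage cells in the member results was not tested.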

How the data were processed

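RNA from both sorted fractions (4 days, 2 batches) and from selected cardiomyocytes (2 arrays) was hybridised to Affymetrix mouse arrays after 2 rounds of T7 oligo dT-primed amplification, per the labels' protocols. Each deposited value is an intensity, the linear MAS5 signal, which the authors obtained from GCOS 1.4 per the submitters' processing notes. Further settings are not given in the sources used here. The number of arrays, 2 in each of 9 groups, limits the precision.

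Groups and batches came from the sample titles. The titles mark the number as a batch, so it was taken to pair fractions and days. Batch deviations of 28 pairs of groups correlated with r between -0.185 and 0.66 across genes, and 13 pairs were over 0.1. A fit with batch as a covariate is given where it changes a call of a member, and for other genes only in part.

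Of 45101 probe sets, 64 controls, 9160 without a symbol and 932 with several were left out. Entrez identifiers served to check 34741 symbols, of which 0 changed. Each gene took its probe set with the highest mean, x-type sets included. A gene was tested if 2 or more arrays reached a signal of 22.5, the median over the whole table. Signals were taken as log2(signal + 6.8), the offset being the 25th percentile, and a mean per group was estimated by limma 3.58.1 (R 4.3.3), using a variance trend and 9 residual degrees of freedom (8 with batch). Genes were called at a Benjamini-Hochberg adjusted p under 0.05. The fit was tested on simulated data with independent noise and no batch effect, which cannot show how it behaves where arrays share a batch or culture.

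All 8 members were named. Other genes were named by rule: the called list members with the lowest adjusted p (at most 4), or where none was called the 2 of lowest p, in the comparisons over days 5 to 8 and over days 7 and 8, Nkx2-5 and Hnf4a always, and the 3 genes nearest to each member and 10 nearest to their mean profile by Pearson r. The report names part of these. The cluster neighbours, Afp, Ttr and Myh6 were chosen outside the rule, after earlier results were seen. The members and lists were chosen with earlier results of these data known. Alternatives covered offset, scaling, filter, probe set choice, variance, array weights, batch, the arrays in the fit, the days compared, leaving out each array and, added later, x-type probe sets and both day 5 arrays of batch 2. Sequences are from RefSeq. Python 3.11.15 with matplotlib 3.10.9 drew the plots.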

Additional observations from a re-analysis of the deposited data

How the results depend on the processing

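Over the 8 genes and 8 comparisons, 1853 values kept direction and side of the threshold under an alternative, 51 passed it newly, 68 no longer passed it and 20 changed sign. Counts of called members moved by over 1.5 times as follows: over days 5 to 8, 3 with an offset of 1; with time in GFP-negative cells, 3 with batch as a covariate (replicate block); in the difference of changes with time, 2 with an offset of the median of all values and 3 with batch (replicate block); and in cardiomyocytes against GFP-negative cells, 5 with an offset of 1 and 5 with array weights. The block ended no call of a member in any of the 8 comparisons. Leaving out each array gave 3 to 7 (days 5 to 8), 4 to 8 (days 7 and 8), 0 to 0 (days 5 and 6), 5 to 8 and 0 to 1 (with time in GFP-positive and in GFP-negative cells), 0 to 3 (difference of changes), 8 to 8 and 1 to 4 (cardiomyocytes against GFP-positive and against GFP-negative cells). There, the remaining array of a group is taken to scatter as arrays elsewhere do. None of the values that changed sign was called. With time in GFP-negative cells, Apoa4 gave -0.01 with equal array medians and Mttp 0.38 for day 8 against day 5, and Mttp gave -0.07 in cardiomyocytes against GFP-negative cells of day 8 alone. Apom with time in GFP-negative cells gave -0.19 without both day 5 arrays of batch 2. Leaving out arrays over days 5 and 6 gave Apoa1 -0.25 to 0.96, Apob -0.17 to 1.73, Apom -0.43 to 1.24 and Apoa4 -0.19 to 0.01. With time in GFP-negative cells it gave Apoa4 -0.08 to 0.17, Mttp -0.30 to 0.18 and Apom -0.19 to 0.93, and for Mttp in cardiomyocytes against GFP-negative cells -0.02 to 0.35. The causes were not tested. Of all genes, batch as a covariate raised the calls from 363 to 707 over days 5 to 8, from 886 to 1407 over days 7 and 8, and from 20 to 147 in the difference of changes. Over days 5 and 6 the 21 calls became 33 with batch, 13 with an offset of 1 or the sorted arrays alone and 4 with array weights. In the difference of changes, an offset of the median gave 79 calls, the mean over probe sets 50, quantile normalization 35, and an offset of 1, no filter, no variance trend, array weights or the sorted arrays alone 0 by limma. Without both day 5 arrays of batch 2, calls with time numbered 1025 in GFP-positive cells and 853 (of 1652) in GFP-negative cells. Over days 7 and 8 the sorted arrays alone gave 559, and with time in GFP-positive cells equal array medians gave 4603 against 2572. Signals near or under 6.8, as in cardiomyocytes, limit the size of a fold.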
